A study of Homo sapiens with 6 samples.

Results

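The transcripts described here encode the eukaryotic translation initiation factors (eIFs) of Hep-G2, a human hepatoma cell line in long use. They were taken as all protein-coding genes whose symbol starts with EIF and a digit from 1 to 6, leaving out the eIF2 kinases (EIF2AK) and the Y-linked EIF1AY, which gave 51 of the 58735 genes in the expression table. Messenger RNA was sequenced from 3 libraries of cells carrying a lentiviral hairpin against CLGN (sh-CLGN; genotype CLGN knock down) and 3 libraries with a negative control hairpin (sh-NC; genotype WT, treatment shcontrol). Calmegin, the product of CLGN, helps proteins fold in the endoplasmic reticulum (ER). All libraries came from the same line and carried the same batch label, 0DAY. Transduced cells were selected with puromycin, and each arm used a single hairpin, so loss of CLGN cannot be told apart from other effects of that hairpin or of the selected population. The labels do not say whether the libraries of a group came from separate cultures, so the p-values measure the spread between these libraries, which may be technical.

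Initiation starts when eIF2, a trimer of alpha, beta and gamma subunits, brings the initiator tRNA to the small ribosomal subunit together with eIF1, eIF1A, eIF3 and eIF5. The eIF4 group recruits the messenger RNA: eIF4E binds the cap, eIF4G is the scaffold, eIF4A unwinds the leader, and the eIF4E-binding proteins compete with eIF4G for eIF4E. Under ER stress the kinase PERK phosphorylates eIF2 alpha, which blocks its recycling by the exchange factor eIF2B and lowers general protein synthesis. Only transcripts were measured here, and neither protein levels nor phosphorylation can be read from them.

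Depth was similar in both groups, at 14955816 to 16244639 reads on genes per library. CLGN, the targeted gene, was at 24.1, 21.1 and 26.1 FPKM (fragments scaled to gene length and library size) in sh-NC replicates 1, 2 and 3, and at 9.48, 8.88 and 8.60 FPKM in sh-CLGN replicates 1, 2 and 3. Values below are listed in that order. All 10 hepatocyte markers reached 1 FPKM in each group. Of 9 fibroblast and stellate markers, 2 reached 1 FPKM in sh-NC libraries and 6 did in sh-CLGN libraries, and their summed level was 7.65 to 9.20 FPKM in sh-NC against 64.8 to 66.9 FPKM in sh-CLGN, while DCN stayed under 0.1 FPKM in every library. Summed endothelial markers lay at 3.33 to 3.67 FPKM in sh-NC and 2.38 to 2.65 FPKM in sh-CLGN, with KDR listed at 0 throughout, and each of 4 blood markers stayed under 0.1 FPKM. The part of these markers in the results on initiation factors was not tested.

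Of the 51 members, 48 reached 1 FPKM in at least 3 libraries and were tested. In sh-CLGN, 24 of the 48 fell and 11 rose at an adjusted p of at most 0.05 (limma on log2(FPKM + 1), two-sided, Benjamini-Hochberg adjustment over all 13074 genes tested), and 13 were not called. In bulk RNA, fewer cells of a kind and less transcript per cell cannot be told apart. Thus 50% of the members were called lower and 22.9% higher, beside 39.0% and 26.7% of all genes tested. Their median log2 change was -0.19 and that of all genes was -0.08. In a test against a fold change of 1.2, 15 members were lower and 5 higher, or 31.3% and 10.4%, beside 20.2% and 13.3% of all genes. The libraries of the groups did not overlap for 37 members (77.1%), beside 70.2% of all genes. EIF2S3B and EIF3CL passed both the adjusted p and an absolute log2 change of 1, and 6.28% of all genes did so. The counts moved with the scaling, for the members and for all genes. Once libraries were scaled by read totals, 20 members were higher and 19 lower (41.7% and 39.6%), beside 38.3% and 25.9% of all genes. After quantile normalization 18 were higher and 15 lower (37.5% and 31.3%), beside 30.2% and 32.5% of all genes. The median over all genes moved up by 0.16 on the log2 scale with read totals and by 0.11 with TPM scaling. The median of the members was -0.005 with read totals and -0.07 with TPM scaling, beside 0.08 and 0.03 over all genes. After GC correction it was -0.167, beside -0.003. After quantile normalization it was 0.02, above the -0.02 of all genes, so the lower median of the members depends on the scaling.

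A core of 19 members kept its call under each of the 18 alternative settings tried. The 13 lower ones were EIF1, EIF1AD, EIF2D, EIF2B3, EIF2B5, EIF3D, EIF3K, EIF3L, EIF4EBP1, EIF4EBP2, EIF4ENIF1, EIF4G1 and EIF6, which is 27.1% of the tested members against 23.2% of all genes held lower in the same way. The 6 higher ones were EIF2A, EIF2S1, EIF2S3B, EIF3CL, EIF4G3 and EIF5, which is 12.5% against 19.1%. Neither share was tested against the background. No alternative changed how reads were assigned to genes. A kept call therefore does not settle the uncertainty of EIF3CL and EIF2S3B, which share sequence with a near-identical copy. Summed over the 51 members, FPKM was 2551, 2495 and 2489 in sh-NC, against 2035, 2007 and 1989 in sh-CLGN, a fall of 20.0% on the deposited scale. As a share of all reads the members held 1.00%, 1.01% and 1.03% in sh-NC, against 0.985%, 0.974% and 0.963% in sh-CLGN, and each sh-CLGN library again lay below each sh-NC library.

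**Figure D1:**
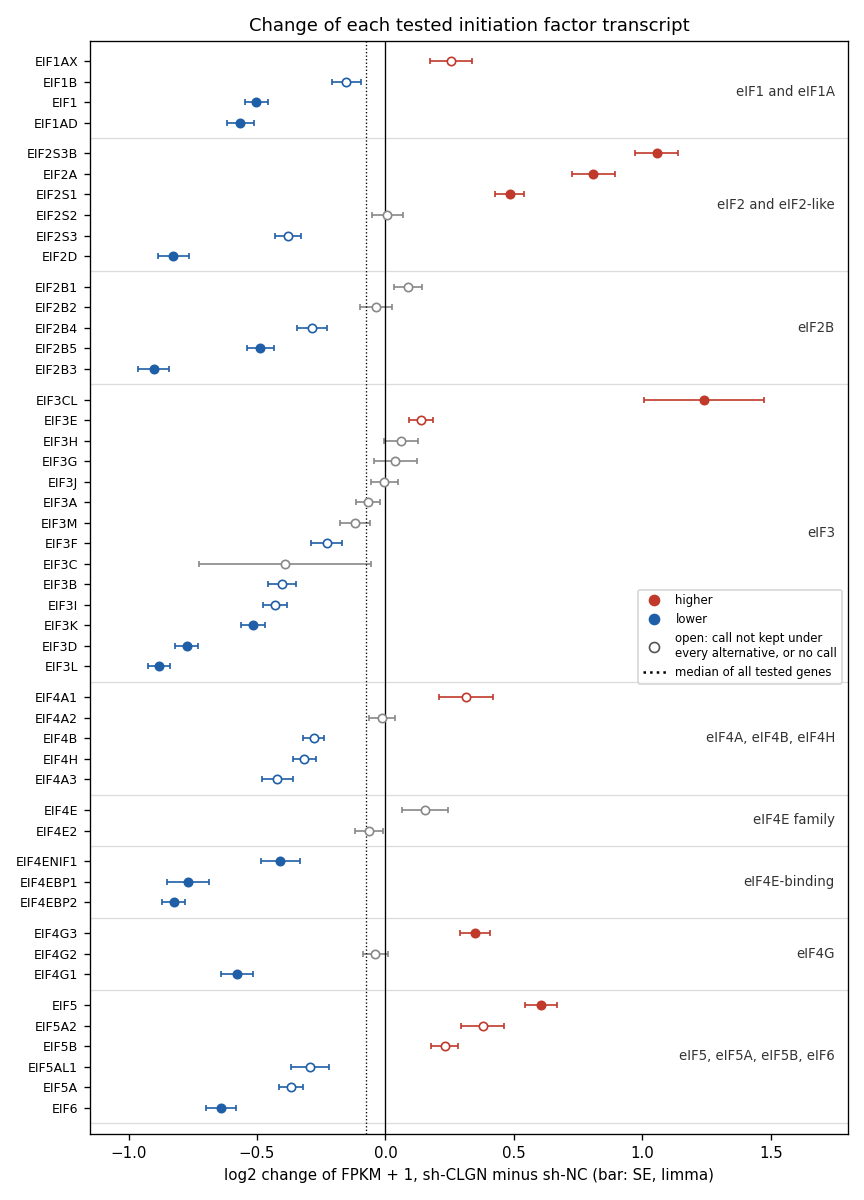
Log2 change of FPKM + 1 (x axis, sh-CLGN minus sh-NC, bars are the limma SE over 3 libraries a group) for the 48 tested initiation factors, grouped by complex. Filled points kept their call under all 18 alternatives (6 higher in red, 13 lower in blue), open points did not or were not called, and the dotted line is the median of all tested genes at -0.08.

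In the small factors that bind the decoding site, 3 of 4 members fell and 1 rose. These are 75% and 25%, beside 39.0% and 26.7% of all genes tested. EIF1, which guards start codon selection, was at 185.6, 181.9 and 186.0 FPKM in sh-NC and at 134.1, 128.7 and 127.3 FPKM in sh-CLGN (log2 change -0.50, SE 0.0439, adjusted p = 3.95e-05). EIF1AD, whose product carries an eIF1A-like domain, was at 9.31, 9.55 and 9.03 FPKM against 5.85, 6.12 and 5.90 FPKM (log2 change -0.57, adjusted p = 5.19e-05). Every sh-CLGN library lay below every sh-NC library for both genes. EIF1B, a close paralog of EIF1, fell by 0.15 on the log2 scale, and its change was 0.04 with read totals and 0.13 after quantile normalization, so its direction was not fixed. The call was also lost when any library other than sh-CLGN replicate 2 was left out. EIF1AX, which encodes eIF1A, rose by 0.26 on the log2 scale (adjusted p = 0.0259), a call lost without sh-NC replicate 2, sh-CLGN replicate 1 or sh-CLGN replicate 2 (adjusted p = 0.08004, 0.09166 and 0.07584). After correction for GC content its change was -0.0020.

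The subunits of eIF2 did not move together: alpha rose, gamma fell and beta was not called. EIF2S1 (ENSG00000134001, chr14:67359997-67386516, plus strand, GRCh38) encodes eIF2 alpha, the subunit phosphorylated under stress. It was at 15.5, 14.6 and 16.5 FPKM in sh-NC and at 22.7, 21.5 and 22.2 FPKM in sh-CLGN (log2 change 0.48, SE 0.0574, adjusted p = 0.000182). The groups did not overlap. EIF2S2, the beta subunit, averaged 99.2 FPKM in sh-NC and 99.7 FPKM in sh-CLGN, with a log2 change of 0.0071 and an SE of 0.0596. It was called higher with read totals (0.20) and after quantile normalization (0.31). EIF2S3, the GTP-binding gamma subunit, fell by 0.38 on the log2 scale, from 56.9 ± 2.88 to 43.4 ± 0.933 FPKM (SD, n = 3), a call lost after quantile normalization. The ratio of EIF2S1 to EIF2S3 FPKM is unchanged by a single scaling factor for a library, but can change with quantile normalization or GC correction. This ratio was 0.280, 0.266 and 0.274 in sh-NC, against 0.517, 0.488 and 0.523 in sh-CLGN. Each sh-CLGN library thus held more alpha transcript per gamma transcript than any sh-NC library.

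EIF2S3 has a near-identical copy, EIF2S3B (ENSG00000180574, chr12:10505602-10523135, plus strand), whose coding sequence differs from it at 25 of 1416 bases. Of the 75-base windows of the annotated transcripts, 27.5% of those of EIF2S3B were found in EIF2S3, and 15.1% of those of EIF2S3 in EIF2S3B. Part of the reads of both genes therefore cannot be assigned with certainty. The stretch below, coding bases 255 to 374 of the GENCODE 29 transcripts, holds 9 of the differences, given in capitals, and shows where reads can separate the pair.
EIF2S3: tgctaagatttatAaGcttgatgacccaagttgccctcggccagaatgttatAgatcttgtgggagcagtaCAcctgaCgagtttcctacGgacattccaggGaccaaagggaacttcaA
EIF2S3B: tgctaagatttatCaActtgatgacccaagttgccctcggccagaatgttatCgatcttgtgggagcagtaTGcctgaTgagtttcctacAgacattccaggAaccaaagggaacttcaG
EIF2S3B was at 1.804, 1.72 and 2.16 FPKM in sh-NC (61, 61 and 81 reads) and at 5.30, 4.63 and 5.11 FPKM in sh-CLGN (218, 184 and 200 reads). Its log2 change was 1.06 (SE 0.0831, adjusted p = 2.40e-05), opposite in sign to that of EIF2S3, and its groups did not overlap.

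The eIF2-like factors that handle initiator tRNA outside the eIF2 trimer moved in opposite directions. EIF2D, which can place tRNA on the small subunit without GTP, was at 6.22, 5.99 and 6.05 FPKM in sh-NC and at 3.12, 2.83 and 3.05 FPKM in sh-CLGN (log2 change -0.83, SE 0.0599, adjusted p = 1.65e-05). EIF2A, an alternative factor that is distinct from eIF2 alpha despite its name and is singled out here after its values were seen, was at 7.79, 7.25 and 9.26 FPKM against 14.9, 14.3 and 15.3 FPKM (log2 change 0.81, adjusted p = 8.73e-05). Both kept their call under all 18 alternatives, and neither shared a 75-base window with another gene.

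In eIF2B, the exchange factor that recharges eIF2 with GTP, the catalytic subunits fell and the rest did so less or were not called. EIF2B3 (gamma; ENSG00000070785, chr1:44850522-44986722, minus strand) was at 11.9, 12.9 and 11.4 FPKM in sh-NC and at 6.19, 5.96 and 5.83 FPKM in sh-CLGN (log2 change -0.90, SE 0.0612, adjusted p = 1.24e-05). EIF2B5 (epsilon), which holds the exchange activity, was at 11.2, 10.4 and 10.8 FPKM against 7.53, 7.16 and 7.52 FPKM (log2 change -0.49, adjusted p = 0.000110). Neither gene had overlapping groups. EIF2B4 (delta) fell by 0.29 on the log2 scale, a call lost with read totals and after GC correction. EIF2B1 (alpha) and EIF2B2 (beta) had log2 changes of 0.09 and -0.04, and neither was called. EIF2B1 was called higher with TPM scaling, with read totals, after quantile normalization and after GC correction, at 0.22, 0.27, 0.26 and 0.13. None of the 5 subunits was called higher on the deposited scale and 3 (60%) were called lower, beside 26.7% and 39.0% of all genes tested.

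**Figure D2:**
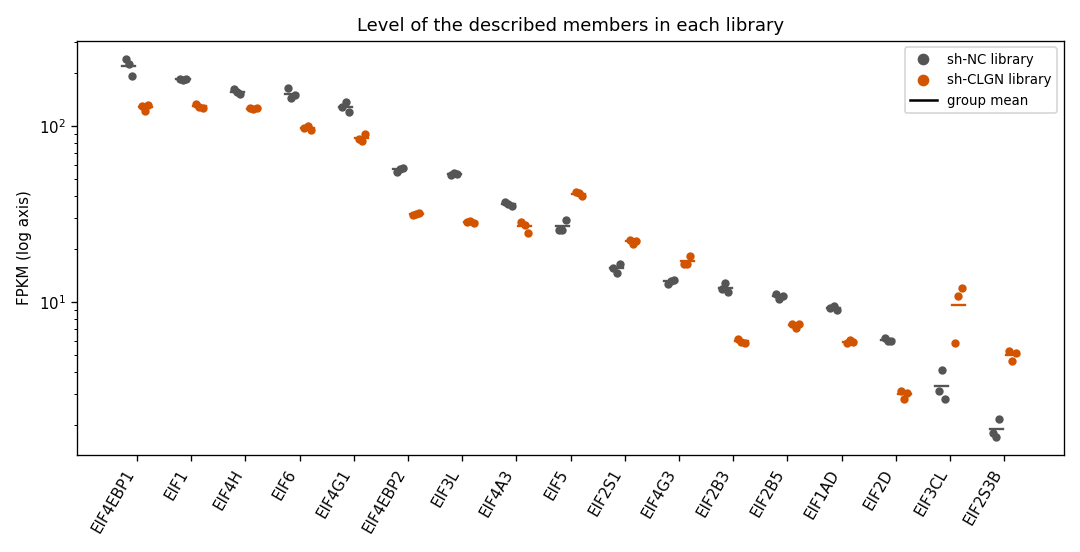
FPKM on a log axis in each of the 6 libraries for 17 of the members given by library in the text, with group means as bars (grey sh-NC, orange sh-CLGN, n = 3). EIF5, EIF2S1, EIF4G3, EIF3CL and EIF2S3B lie higher in every sh-CLGN library and the other 12 lie lower.

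Of the 14 genes of eIF3, the large complex that holds the small subunit and messenger RNA together, 6 fell, 2 rose and 6 were not called. Thus 42.9% were lower and 14.3% higher, beside 39.0% and 26.7% of all genes tested. EIF3L (ENSG00000100129, chr22:37848868-37889407, plus strand) was at 52.6, 54.1 and 53.5 FPKM in sh-NC and at 28.4, 28.97 and 28.2 FPKM in sh-CLGN (log2 change -0.88, SE 0.0420, adjusted p = 3.00e-06). An overlapping annotated gene, AL022311.1, shares 41.1% of the exonic bases of EIF3L and held 25 to 51 reads per library. EIF3D, which can itself bind caps of selected messages, fell by 0.77 on the log2 scale. EIF3K, the partner of eIF3l in the periphery of the complex, fell by 0.51, EIF3I by 0.43, EIF3B by 0.40 and EIF3F by 0.23. The calls of EIF3I and EIF3B were lost after quantile normalization, and that of EIF3F under 3 scalings. EIF3A, the scaffold subunit, had a log2 change of -0.07, and those of EIF3G, EIF3H, EIF3J and EIF3M ran from -0.12 to 0.06 with no call. These calls moved with the scaling. With read totals and after quantile normalization EIF3A (0.12 and 0.22), EIF3G (0.23 and 0.32), EIF3H (0.24 and 0.29) and EIF3J (0.19 and 0.28) were called higher. After GC correction EIF3G was called higher (0.29) and EIF3J (-0.16) and EIF3M (-0.30) were called lower. EIF3E rose by 0.14 on the log2 scale (adjusted p = 0.0292), with a value of -0.05 after GC correction, and it lost its call when any library other than sh-NC replicate 3 was left out. The median FPKM over the 12 subunits other than EIF3C and EIF3CL was 49.9, 48.3 and 47.6 in sh-NC, against 37.8, 37.5 and 37.5 in sh-CLGN.

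The remaining subunit, eIF3c, is encoded by a pair of genes that these libraries can hardly separate. EIF3C (ENSG00000184110, chr16:28688558-28735730, plus strand) and EIF3CL (ENSG00000205609, chr16:28379579-28403879, minus strand) have coding sequences identical over 2739 aligned bases, and 96.0% and 97.9% of their 75-base windows occur in the other. The first 120 coding bases, shown because no read within them can be assigned, read the same in both.
EIF3C: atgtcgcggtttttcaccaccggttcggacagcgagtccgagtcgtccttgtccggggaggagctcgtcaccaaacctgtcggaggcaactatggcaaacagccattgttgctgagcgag
EIF3CL: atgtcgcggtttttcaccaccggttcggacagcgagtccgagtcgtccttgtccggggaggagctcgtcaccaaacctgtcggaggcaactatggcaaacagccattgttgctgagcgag
EIF3CL was at 3.13, 4.10 and 2.82 FPKM in sh-NC and at 5.84, 10.9 and 12.1 FPKM in sh-CLGN (log2 change 1.24, SE 0.233, adjusted p = 0.00199). EIF3C was at 3.62, 9.98 and 4.45 FPKM against 5.26, 4.604 and 2.50 FPKM (log2 change -0.39, SE 0.334, not called). Summed over the pair, the sh-NC libraries had 488, 1202 and 616 reads, and the sh-CLGN libraries had 929, 1077 and 885, so the groups overlapped. EIF3CL took 27.7%, 15.4% and 21.9% of these reads in sh-NC, against 32.9%, 51.1% and 68.1% in sh-CLGN. The call of EIF3CL is therefore uncertain as a change of eIF3c transcript.

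**Figure D3:**
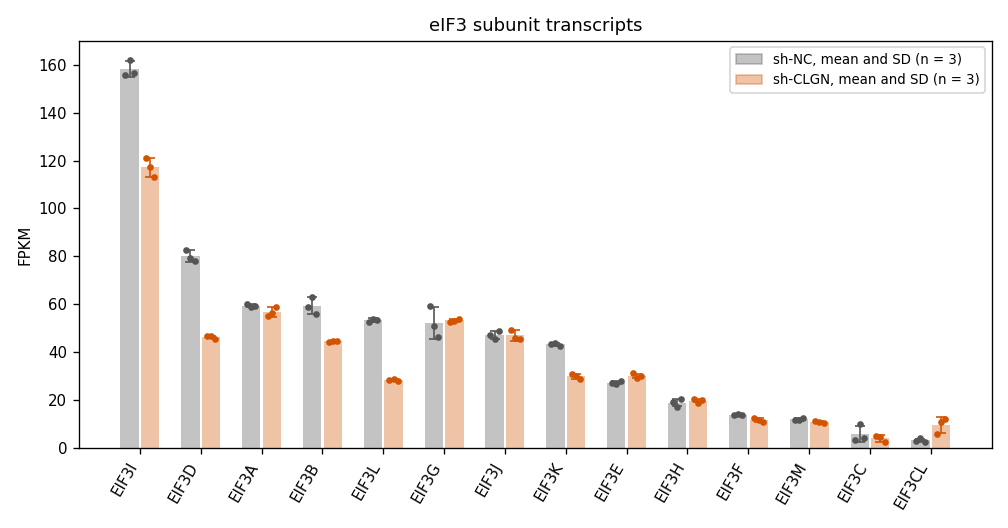
FPKM of the 14 eIF3 genes, with bars as group means, whiskers as SD (n = 3) and points as libraries. EIF3I, EIF3D, EIF3B, EIF3L and EIF3K lie lower in every sh-CLGN library, and EIF3G and EIF3J overlap.

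Of the 5 genes for eIF4A-type helicases and for the proteins that stimulate eIF4A, 3 fell and 1 rose. These are 60% and 20%, beside 39.0% and 26.7% of all genes tested. EIF4A3, a helicase of the exon junction complex, was at 37.2, 36.2 and 35.4 FPKM in sh-NC and at 28.6, 27.4 and 24.8 FPKM in sh-CLGN (log2 change -0.42, adjusted p = 0.000496), a call lost after quantile normalization. EIF4H, which stimulates eIF4A, was at 161.8, 156.9 and 151.8 FPKM against 127.1, 124.2 and 125.8 FPKM (log2 change -0.32, adjusted p = 0.000447). The groups did not overlap for either gene. EIF4B, another stimulator, fell by 0.28 on the log2 scale, a call lost with read totals. Of the windows of the EIF4B transcript, 46.0% occurred in other genes, and 33.6% in EIF4BP6, which held 60 to 114 reads per library. Part of the EIF4B reads therefore cannot be assigned with certainty. After quantile normalization both EIF4H and EIF4B changed by 0.01, so their falls rest on the scaling. EIF4A2, a core helicase, averaged 60.5 FPKM in sh-NC and 59.9 FPKM in sh-CLGN, with a log2 change of -0.01. It was called higher with read totals (0.18) and after quantile normalization (0.28), and lower after GC correction (-0.18).

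EIF4A1, the main helicase gene, was listed at only 1.11, 1.02 and 0.924 FPKM in sh-NC and 1.69, 1.21 and 1.64 FPKM in sh-CLGN, from 76 to 152 reads. It shares 48.6% of its exonic bases on the same strand with AC016876.2, SENP3-EIF4A1 and SNORD10, and all 1682 windows of its transcript occur in other genes. AC016876.2 and SENP3-EIF4A1 held 0 to 5 and 0 to 7 reads. Its level and its log2 change of 0.31 (adjusted p = 0.0304) are therefore uncertain, and the call was lost without sh-NC replicate 2 or 3 or without sh-CLGN replicate 1 or 3. Without EIF3C, EIF3CL and EIF4A1, 24 of 45 members fell and 9 rose (53.3% and 20%, beside 39.0% and 26.7% of all genes tested).

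All 3 tested genes for proteins that bind eIF4E and limit or move it fell, and EIF4E itself was not called. Among all genes tested, 39.0% fell. EIF4EBP1 was at 238.7, 224.8 and 193.2 FPKM in sh-NC and at 130.2, 121.5 and 131.3 FPKM in sh-CLGN (log2 change -0.77, SE 0.0802, adjusted p = 9.36e-05). EIF4EBP2 was at 54.8, 57.2 and 58.0 FPKM against 31.2, 31.5 and 32.1 FPKM (log2 change -0.82, SE 0.0448, adjusted p = 5.20e-06). EIF4ENIF1, the eIF4E transporter, fell by 0.41 on the log2 scale, from 6.85 ± 0.626 to 4.91 ± 0.312 FPKM (SD, n = 3). All 3 had every sh-CLGN library below every sh-NC library and kept their call under all 18 alternatives. EIF4EBP3, the remaining binding protein, had 0 to 7 reads per library and was not tested. It shares 73.4% of its exonic bases on the same strand with ANKHD1-EIF4EBP3, which held 16 to 30 reads per library, so its level is uncertain.

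EIF4E was at 2.94, 2.23 and 2.76 FPKM in sh-NC and at 3.09, 2.87 and 3.17 FPKM in sh-CLGN, with a log2 change of 0.15, an SE of 0.0899 and an adjusted p of 0.164. It was called higher with TPM scaling and with read totals. EIF4E2, a cap-binding repressor of translation, had a log2 change of -0.06. EIF4E1B and EIF4E3 stayed below the filter, at no more than 1 and 39 reads per library. The summed FPKM of EIF4EBP1 and EIF4EBP2 over that of EIF4E was 99.98, 126.5 and 91.0 in sh-NC, against 52.2, 53.4 and 51.6 in sh-CLGN. This ratio was lower in each sh-CLGN library. Its absolute size rests on the gene length of 14067 bases used for EIF4E, the sum of all its annotated exons, which lowers the FPKM of a shorter transcript. Of the windows of the EIF4E transcript, 45.3% also occurred in EIF4EP2, which held 45 to 98 reads per library. Part of the EIF4E reads therefore cannot be assigned with certainty, which leaves its level and this ratio uncertain.

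The scaffolds also parted. EIF4G1 (ENSG00000114867, chr3:184314495-184335358, plus strand), the major eIF4G, was at 127.5, 137.2 and 120 FPKM in sh-NC and at 84.1, 82.7 and 89.8 FPKM in sh-CLGN (log2 change -0.58, SE 0.0617, adjusted p = 0.000105). EIF4G3, its paralog, was at 12.7, 13.3 and 13.4 FPKM against 16.4, 16.4 and 18.3 FPKM (log2 change 0.35, SE 0.0588, adjusted p = 0.00113). The groups did not overlap for either gene. EIF4G1 exceeded EIF4G3 by a factor of 10.02, 10.4 and 8.96 in sh-NC and of 5.14, 5.05 and 4.91 in sh-CLGN. EIF4G2, a relative without the eIF4E-binding region, had a log2 change of -0.04 and was not called. It too was called higher with read totals and after quantile normalization, and lower after GC correction (-0.14).

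Of the 6 genes for eIF5, eIF5A, eIF5B and eIF6, 3 rose and 3 fell. Each is 50%, beside 26.7% higher and 39.0% lower over all genes tested. EIF5, the GTPase activator of eIF2, was at 25.7, 25.6 and 29.4 FPKM in sh-NC and at 42.0, 41.7 and 40.3 FPKM in sh-CLGN (log2 change 0.61, SE 0.0621, adjusted p = 8.51e-05). EIF6, which keeps the large subunit from joining too early, was at 164.4, 144.0 and 149.9 FPKM against 97.6, 100.3 and 94.7 FPKM (log2 change -0.64, SE 0.0591, adjusted p = 5.11e-05). Neither gene had overlapping groups. An overlapping annotated gene, AL121753.1, shares 17.4% of the exonic bases of EIF6 on the same strand and held 0 to 12 reads per library. EIF5B, the GTPase of subunit joining, rose by 0.23 on the log2 scale, a call lost after GC correction. EIF5A, which carries hypusine and helps the ribosome through difficult peptide bonds, fell by 0.37, from 236 ± 7.08 to 182 ± 5.03 FPKM (SD, n = 3), and its paralog EIF5A2 rose by 0.38, from 1.18 ± 0.134 to 1.83 ± 0.025 FPKM. Both calls were lost after GC correction. EIF5AL1, a copy with 5 differences over 462 aligned coding bases of EIF5A, fell by 0.29 and is uncertain for that reason. Of the windows of the EIF5A transcript, 18.9% occurred in EIF5AL1, so part of the EIF5A reads cannot be assigned with certainty either. The call of EIF5AL1 was lost with TPM scaling and with read totals, and that of EIF5A also after quantile normalization.

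The other genes around these complexes, listed by function, gave further calls. Of 15 genes for the eIF2 kinases, the phosphatase and their outputs, 6 fell, 4 rose and 5 were not called. That is 40% lower and 26.7% higher, beside 39.0% and 26.7% of all genes tested. PPP1R15A, the stress-induced phosphatase subunit GADD34, fell by 1.57 on the log2 scale (SE 0.0656), from 51.4 ± 3.83 to 16.6 ± 0.732 FPKM (SD, n = 3). ATF4, the transcription factor made when eIF2 is phosphorylated, fell by 0.57, and PPP1CB, a catalytic phosphatase subunit, rose by 0.54. Of the other catalytic subunits, PPP1CA fell by 0.41, from 319.5 ± 23.3 to 239.6 ± 6.98 FPKM (SD, n = 3), and PPP1CC was not called. The level of PPP1CB went from 13.2 ± 0.628 to 19.7 ± 0.512 FPKM. Of 15 genes for the mTOR and MNK pathways that control eIF4E, 7 rose and 5 fell. The shares were 46.7% higher and 33.3% lower, beside 26.7% and 39.0% of all genes tested. PDCD4, an inhibitor of eIF4A, rose by 0.93 on the log2 scale, from 10.7 ± 0.623 to 21.3 ± 0.703 FPKM (SD, n = 3), while RPS6KB2 fell by 0.53 and LARP1 by 0.58. RPS6KB1, the paralog of RPS6KB2, rose by 0.60.

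Of 5 genes for poly(A)-binding protein and its partners, 2 rose and 1 fell (40% and 20%, beside 26.7% and 39.0% of all genes tested). PAIP1, which links poly(A)-binding protein to eIF4A and eIF3, was at 15.6, 15.9 and 16.6 FPKM in sh-NC and at 42.8, 44.2 and 44.2 FPKM in sh-CLGN (log2 change 1.39, SE 0.0464, adjusted p = 1.05e-06). PABPC1 fell by 0.42 and PAIP2 rose by 0.20, with the first call lost after quantile normalization and the second after GC correction. Of 10 tested helpers of initiation, 4 rose and 2 fell (40% and 20%, beside 26.7% and 39.0% of all genes tested). Among them were MCTS1 at 0.29, MTIF2 at 0.27 and DOHH, the last enzyme of hypusine synthesis, at -0.37. The call of DOHH was lost after quantile normalization and after GC correction. Of 9 tested elongation and termination factors, 4 fell and 2 rose (44.4% and 22.2%, beside 39.0% and 26.7% of all genes tested). The log2 changes of EEF2, EEF1B2 and EEF1A1 were -0.44, -0.42 and -0.34. The call of EEF1B2 was lost after quantile normalization and that of EEF1A1 with read totals and without the filter. EEF1G and GSPT2 were listed at 0 in every library. Sequence shared with other genes was searched for the members only, so this 0 cannot be read as absence of the transcripts.

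**Figure D4:**
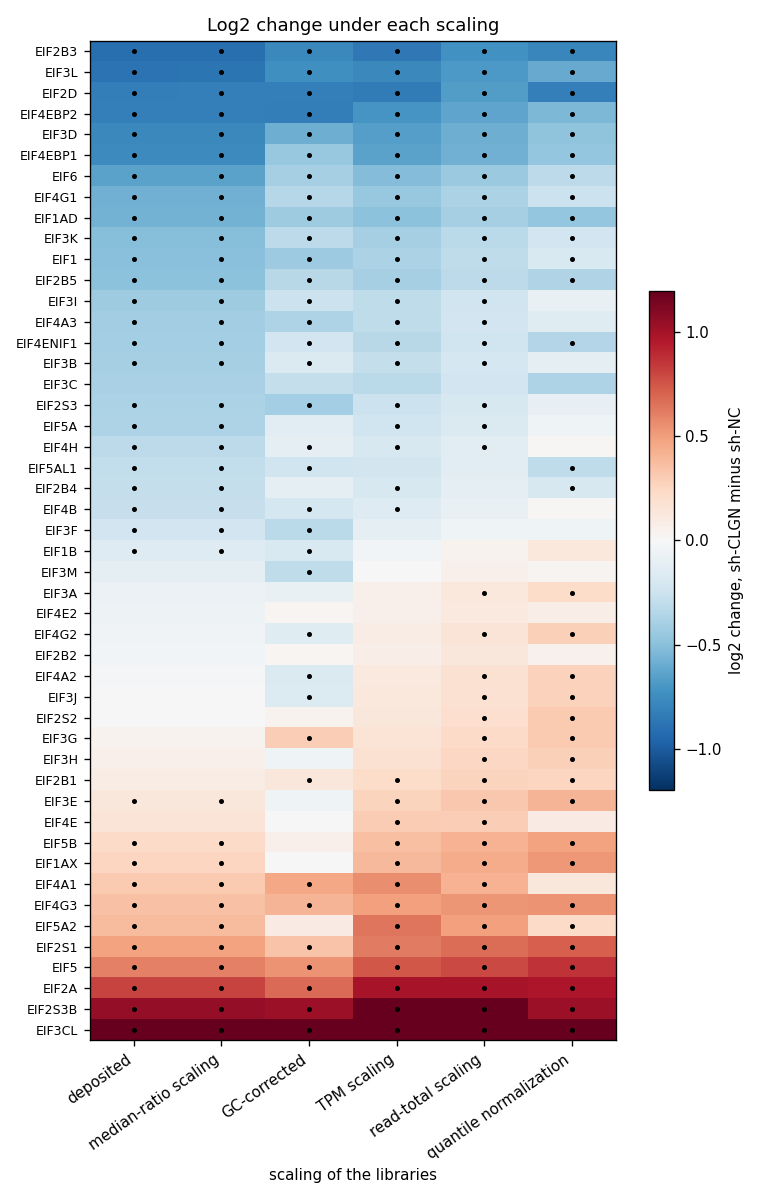
Log2 change of the 48 tested members (rows) under the deposited values and 5 other scalings or corrections (columns), with dots where the adjusted p was at most 0.05. EIF2B3, EIF3L and EIF2D at the top and EIF2S3B, EIF2A and EIF5 at the bottom keep their colour across columns, and members near the middle change sign.

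The change of a member varied with its base composition. Across the 48 tested members, log2 change and GC content of the longest transcript had a Spearman rho of -0.545, and across 13068 genes it was -0.318. These are descriptions, since genes of a library share its amplification and depth. Below 40% GC the median change was 0.19 in 10 members and 0.19 in 2083 genes. From 45 to 50% it was -0.29 in 15 members and -0.09 in 2395 genes, and from 50 to 55% it was -0.41 in 7 members and -0.20 in 2093 genes. After the trend with GC was removed in each library, 26 members were called lower and 9 higher (54.2% and 18.8%), beside 34.2% and 32.8% of all genes, and 14 passed the test against a fold change of 1.2.

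**Figure D5:**
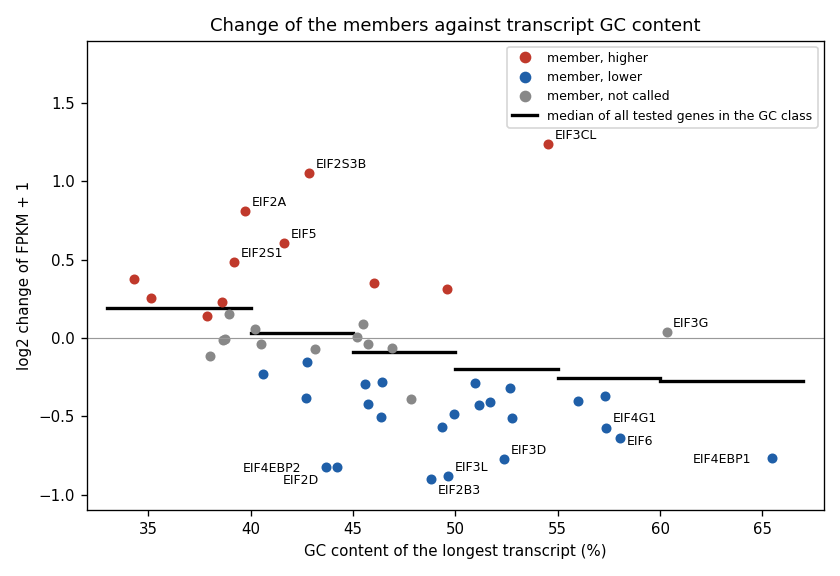
Log2 change (y axis) against GC content in percent (x axis) for the 48 tested members, coloured by call, with black bars for the median of all tested genes in each GC class. Bars step from 0.19 below 40% to -0.27 from 60%, and EIF2D and EIF4EBP2 lie far below their class while EIF2S3B and EIF3CL lie far above theirs.

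Annotated 3′ ends were searched for 2 heptamers, which were not counted separately. TACCACA pairs with the seed of the CLGN hairpin, and ATACCAC with the stretch 1 base further along. Other seed sites were not searched. At least 1 of the heptamers was found in 6 of 48 members (12.5%) and in 13.5% of 10880 genes. The members were EIF1AD, EIF2S1, EIF2S2, EIF3C, EIF3CL and EIF4E, 2 of them called higher and 1 lower. Outside the members, PPP1R15A, which fell by 1.57 on the log2 scale, also held such a heptamer. The 42 members without a heptamer, 87.5% of those tested, held 23 of the 24 falls and 9 of the 11 rises. A direct part of these heptamers in the calls was not tested.

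Promoters were read for 43 members from RefSeq on GRCh38.p14, from 250 bases before to 50 bases after the start. The E-box CACGTG, which reads the same on both strands and is bound by MYC with MAX, occurred in 11 of them (25.6%), beside 12.8% of 9073 tested genes and 8.77% of 27305 genes with a promoter. Of the 11, 8 fell (EIF1B, EIF2B3, EIF3F, EIF3K, EIF4A3, EIF4B, EIF4G1 and EIF4H), 1 rose (EIF5A2), EIF4E was not called and EIF4EBP3 was not tested. Falls were called for 50% of all tested members and 39.0% of all genes tested, and the share among all E-box genes was not computed. EIF1B, EIF4B and EIF4H turned sign under a scaling. The calls of EIF3F, EIF4A3 and EIF5A2 were lost under at least 1 scaling or correction. The amino acid response core TGATGNAA, searched on both strands, is bound by ATF4 with its partners. It occurred in 1 of 43 (2.33%), EIF4E3, beside 2.68% of 9073 tested genes and 4.46% of all genes with a promoter. A match describes letters and is no evidence of binding. The upstream 120 bases of this window are shown for EIF2B3 (chr1:44986726-44986845, minus strand) and EIF4G1 (chr3:184314356-184314475, plus strand), whose falls held under all 18 alternatives, with the E-box in capitals.
EIF2B3: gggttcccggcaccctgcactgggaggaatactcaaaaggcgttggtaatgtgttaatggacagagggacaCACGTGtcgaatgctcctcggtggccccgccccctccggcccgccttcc
EIF4G1: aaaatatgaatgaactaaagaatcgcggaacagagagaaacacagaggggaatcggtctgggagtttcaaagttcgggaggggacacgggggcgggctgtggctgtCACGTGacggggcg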

How the data were processed

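Libraries of 3 sh-NC and 3 sh-CLGN Hep-G2 samples were grouped after their labels, with columns named KD taken as sh-CLGN. The authors deposited FPKM per gene, and the submitters' processing notes name HISAT2 2.0.5, featureCounts and the genome build GRCh38. Strandedness and the handling of reads that fit several genes were not given in the sources used here. FPKM times gene length gave whole reads for 100% of values within 0.01 of a read, and all 58735 gene positions equalled those of GENCODE 29. The deposited library sizes lay at 0.933 to 0.953 (sh-NC) and 1.07 to 1.08 (sh-CLGN) of the read totals.

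Genes that reached 1 FPKM in 3 or more libraries were tested on log2(FPKM + 1) with limma 3.58.1 in R 4.3.3 (eBayes with an intensity trend), which understates changes of low genes, and adjusted by Benjamini-Hochberg. The threshold was an adjusted p of 0.05, and a second test was made against a fold of 1.2. The procedure was tested on simulated data. The members, lists and tests were chosen with earlier results of these data known. In each complex the 2 members with the largest called change and separated libraries, EIF2S1 and members past an absolute log2 change of 1 are given in every library, and the 3 smallest adjusted p of each list are named. EIF2A was chosen after its values were seen. Alternatives were a pseudocount of 0.1, no filter, protein-coding genes only, TPM, read-total, median-ratio and quantile scaling, no trend, robust eBayes, voom on recovered reads, a GC correction (lowess span 0.3), a block for the replicate number, and each library left out. Shared sequence was searched in 75-base windows of GENCODE 29 transcripts, and hairpin heptamers in annotated 3′ ends of at least 50 bases. Sequences and figures used Python 3.11.15 with pandas 2.3.3 and matplotlib 3.10.9.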

Additional observations from a re-analysis of the deposited data

How the results depend on the processing

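Members called lower numbered 24 as reported and 15 after quantile normalization, and members called higher numbered 11 as reported, 20 with read-total scaling and 18 after quantile normalization. Of all genes, 32.5% were lower after quantile normalization, and 38.3% and 30.2% higher in those 2 fits. The cause was not tested. Leaving out each library in turn gave 8 to 10 higher, 23 to 24 lower and 17 to 20 past the 1.2-fold test. In those fits 23.5% to 27.4% of all genes were higher and 34.9% to 39.6% lower. The other alternatives stayed within 1.5 times the reported counts, with 14 past the 1.2-fold test after GC correction. The share of all genes past that test was computed only for the fit as reported. Leaving out EIF3C, EIF3CL and EIF4A1, an alternative chosen after seeing the data, gave 9 higher, 24 lower and 19 past the 1.2-fold test. With the replicate number as a block, 10 were higher, 23 lower and 18 past the 1.2-fold test. In the block fit 25.1% of all genes were higher and 36.4% lower, and EIF1B and EIF3E lost their calls. Deviations of same-numbered libraries correlated at -0.02, -0.05 and -0.15, so no positive shared deviation by number was seen. These values cannot tell whether same-numbered libraries were prepared together.

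The sign of a log2 change turned in these cases, mostly for members that were not called. With TPM scaling EIF2B2 was at 0.083, EIF3A at 0.058, EIF3J at 0.12, EIF4A2 at 0.11, EIF4E2 at 0.057 and EIF4G2 at 0.088. With read-total scaling EIF1B was at 0.039, EIF2B2 at 0.14, EIF3A at 0.12, EIF3J at 0.19, EIF3M at 0.062, EIF4A2 at 0.18, EIF4E2 at 0.12 and EIF4G2 at 0.155. After quantile normalization EIF1B was at 0.13, EIF2B2 at 0.051, EIF3A at 0.22, EIF3J at 0.28, EIF3M at 0.036, EIF4A2 at 0.28, EIF4B at 0.0101, EIF4H at 0.013, EIF4E2 at 0.081 and EIF4G2 at 0.285. After GC correction EIF1AX was at -0.0020, EIF2B2 at 0.019, EIF3E at -0.048, EIF3H at -0.052 and EIF4E2 at 0.022. Leaving out each library gave ranges of -0.033 to 0.051 for EIF2S2, -0.072 to 0.0017 for EIF2B2, -0.041 to 0.13 for EIF3G, -0.0012 to 0.11 for EIF3H, -0.040 to 0.019 for EIF3J and -0.043 to 0.023 for EIF4A2. Of 1134 recomputed changes of single genes, 1028 kept direction and call, 50 lost and 17 gained a call with the sign kept, and 39 turned sign, of which 6 also lost and 8 also gained a call.

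With 3 libraries a group and 1 hairpin an arm, changes cannot be assigned to CLGN. EIF4EBP3, with fewer than 10 reads per library, was not tested, so neither a change nor its absence can be read from it.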

Other observations

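Ratios within a library are unchanged by a single scaling factor for it, but can change with quantile normalization or GC correction. Those below were chosen after their values were seen. EIF5, which activates the GTPase of eIF2, stood at 2.30, 2.45 and 2.73 times the FPKM of EIF2B5, which recharges it, in sh-NC, and at 5.58, 5.83 and 5.35 times in sh-CLGN. EIF5 over EIF5B was 1.07, 1.15 and 1.17 in sh-NC, against 1.498, 1.51 and 1.42 in sh-CLGN. Neither ratio overlapped between the groups. Pseudogenes named after initiation factors numbered 72, of which 34 held a read, and they took 1257 to 1548 reads per library, against 145272 to 166679 on the members.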
